A study of Mus musculus with 12 samples.

Results

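Interferon-stimulated genes were followed in hearts of control mice and of mice carrying mutant IDH2, the mitochondrial isocitrate dehydrogenase. The 34 genes written in the list are well-known targets of interferon signalling, and a gene was taken where a probe set of the Affymetrix platform carried its symbol alone. This gave 30 of the 34 genes, out of 19937 genes measured in all. Isg15, Gbp2, Igtp and Ifi44 had no such probe set and were not analysed here. Hearts came from 3 groups with 4 arrays each, labelled as control, IDH2 R140Q mutant and IDH2 R172K mutant, on a strain background that mixed C57BL/6, 129/sv and Balb/c. Mutant mice received 2 mg of 4-hydroxytamoxifen on 3 days, at an age of 5 weeks. The labels used here do not say what control mice received, which promoter or Cre line acts on the mutant allele, or the age at dissection, and an effect of the drug and one of the mutation cannot be told apart in any comparison with control. The labels do not state that every array came from its own mouse, and the p-values below reflect only how much these arrays vary.

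Interferons are secreted proteins that cells release on sensing viral or misplaced nucleic acid. Type I interferons bind the receptor chains Ifnar1 and Ifnar2, and Jak family kinases then activate Stat proteins, which join Irf9 and bind the interferon-stimulated response element (ISRE) of target genes. Interferon gamma binds Ifngr1 and Ifngr2 and acts through the gamma-activated sequence (GAS) of its target genes. The targets include nucleic acid sensors, antiviral effectors, guanylate-binding and immunity-related GTPases, and proteins that prepare peptides for MHC class I. Heart muscle cells, endothelium, fibroblasts and resident macrophages can all express such genes at a basal level.

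The 12 arrays had median intensities between 74.8 and 78.0 units. In log2 intensity, Idh2 lay between 12.62 and 12.85 in control, between 12.27 and 12.57 in R140Q and between 11.88 and 12.57 in R172K hearts, so that all 8 mutant values lay below all control values. The differences of -0.30 and -0.36 did not pass (limma adjusted p = 0.301 and 0.109). Cardiomyocyte markers were bright in every heart, with a summed intensity of 7 genes from 57047 to 77798 units. Atrial markers stood apart in control 3, whose 4 markers summed to 26805 units against 4879 to 5852 in the other control hearts. The same markers summed to 601 units in R140Q 2, to 7474 to 9828 in the other R140Q hearts and to 10566 to 19708 in R172K hearts. These sums follow the brightest marker, which was Nppa in all hearts but R140Q 2. Nppa lay at 12.74, 7.85, 13.20 and 12.81 in R140Q 1 to 4. The other atrial markers ran lower in R140Q than in control hearts: Myl7 at 5.23 to 6.04 against 6.18 to 12.49, Sln at 5.25 to 5.90 against 5.73 to 7.81. Myl4 lay at 7.88 to 8.98 against 8.25 to 13.20. The 11 macrophage markers summed to 7545 units in R172K 4 and to between 2531 and 4533 in the other 11 hearts. The plasmacytoid dendritic cell marker Siglech (5.63 to 5.97), the natural killer cell marker Ncr1 (3.89 to 4.46) and the B cell marker Cd79a (4.03 to 4.59) were dim throughout. In RNA of heart tissue, a change in the number of cells of a type and a change in RNA per cell cannot be told apart.

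The promoter stretches below show the 2 DNA motifs through which interferons act, in members that hold them. RefSeq promoter windows of assembly GRCm38.p6, each with 250 bases before and 50 bases after the start site, were found for 22 of the 30 measured members. The ISRE core was searched as GAAANNGAAA on both strands (TTTCNNTTTC on the other strand), and the GAS motif as TTCNNNGAA, which reads the same on both strands. The ISRE core was present in 13 of the 22 members (59.1%), against 3.99% of 27025 genes in the table. The GAS motif was present in 6 of the 22 (27.3%), against 9.55% of genes. A match is a description of the letters and not evidence of binding. In the stretches below, written 5′ to 3′ on the strand of the gene, capitals mark the motif. The GAS motif is shown for Irf1, Psmb8 and Ifit2, and the ISRE core, here as TTTCNNTTTC, for the other members.
Irf1 (chr11:53769892-53769964, plus strand): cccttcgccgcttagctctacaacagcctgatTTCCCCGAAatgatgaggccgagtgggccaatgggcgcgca
Psmb8 (chr17:34198066-34198138, plus strand): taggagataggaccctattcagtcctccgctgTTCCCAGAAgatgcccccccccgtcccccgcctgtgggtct
Ifit2 (chr19:34550444-34550493, plus strand): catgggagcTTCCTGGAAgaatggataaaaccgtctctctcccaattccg
Trim30a (chr7:104465194-104465261, minus strand): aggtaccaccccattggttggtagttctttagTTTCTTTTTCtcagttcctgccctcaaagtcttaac
Rsad2 (chr12:26456531-26456604, minus strand): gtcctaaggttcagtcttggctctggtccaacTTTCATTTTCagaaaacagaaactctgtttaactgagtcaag
Ifit1 (chr19:34640753-34640845, plus strand): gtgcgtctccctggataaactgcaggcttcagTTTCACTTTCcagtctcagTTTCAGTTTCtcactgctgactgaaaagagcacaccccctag
Ifit3 (chr19:34583341-34583448, plus strand): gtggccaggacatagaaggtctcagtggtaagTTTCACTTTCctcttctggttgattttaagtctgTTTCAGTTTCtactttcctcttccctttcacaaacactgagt
Gbp3 (chr3:142559967-142560043, plus strand): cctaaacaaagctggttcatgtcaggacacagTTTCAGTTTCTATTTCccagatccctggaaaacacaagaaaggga
Ifit1 and Ifit3 each hold 2 separate copies of the ISRE core in these stretches, and Gbp3 holds 2 that overlap. The stretches of Trim30a and Gbp3 begin 68 and 77 bases before the start site. Irf1, Ifit2 and Gbp3 each have a second promoter window, which held neither motif.

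The members spread widely between hearts of one group. The median SD of a member among the 4 control hearts was 0.21 log2 units, against 0.10 over all genes, and it was 0.15 against 0.11 in R140Q and 0.27 against 0.14 in R172K hearts. In each group, 25 of the 30 members had an SD above that of the median gene. The radical SAM enzyme gene Rsad2 (viperin), which makes an antiviral nucleotide, had the widest spread in control hearts: 6.84, 6.94, 8.06 and 7.84 in replicates 1 to 4. Ifit3, whose product binds to viral RNA together with that of Ifit1, had the widest spread in R172K hearts, with 7.49, 6.62, 7.55 and 8.15.

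The same hearts were low or high across many members. Control 1 was the lowest control in 16 of 30 members and control 2 in 10, while control 3 was the highest in 14 and control 4 in 15. Over all genes each control was the lowest in 19.6% to 29.9% and the highest in 23.4% to 25.9%. The arrays closest to each other over all genes were control 1 and 2 (SD of the log2 difference 0.166). Next came R172K 1 and 2 (0.188) and control 3 and 4 (0.207). Among R172K hearts, replicate 2 was the lowest in 22 members (19.8% of all genes) and replicate 4 the highest in 22 (26.9% of all genes). Among R140Q hearts, replicate 1 was the highest in 20 (25.2% of all genes) and replicate 3 the lowest in 16 (24.7%). Set against the mean of the control hearts, the median member lay at -0.16, -0.11, 0.18 and 0.17 log2 units in control 1 to 4. It lay at 0.33, 0.17, 0.05 and 0.09 in R140Q 1 to 4 and at -0.01, -0.17, -0.01 and 0.29 in R172K 1 to 4. R172K 4 was also the heart with the highest macrophage marker sum, and the part of macrophages in its member levels was not tested.

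**Figure D1:**
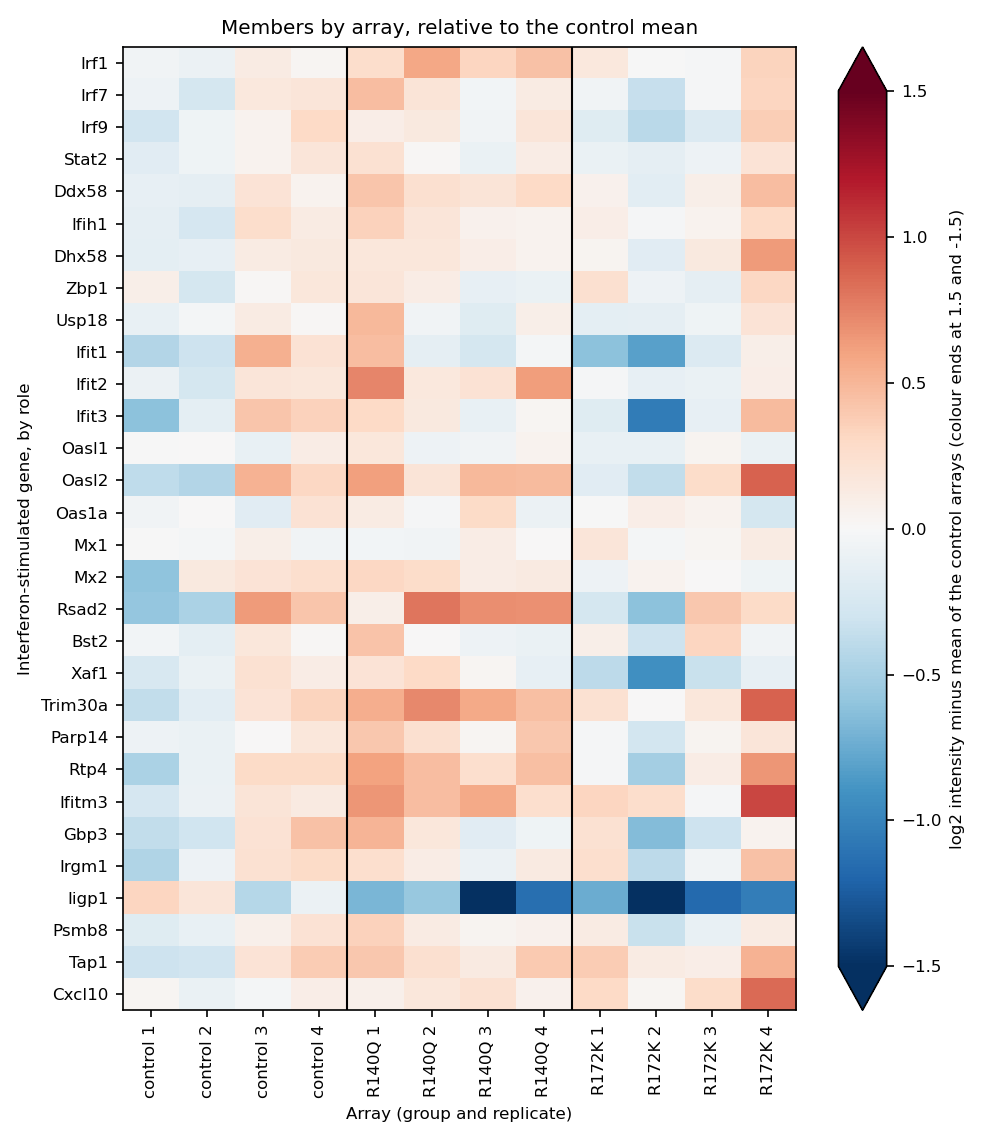
Each row is a measured interferon-stimulated gene, in the order of the roles in the text, and each column an array. Colour gives log2 intensity minus the mean of the 4 control arrays. Control 1 and 2 are mostly blue and control 3 and 4 mostly red, R172K 2 and R172K 4 differ in the same way, and Iigp1 is blue in all 8 mutant hearts.

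**Figure D2:**
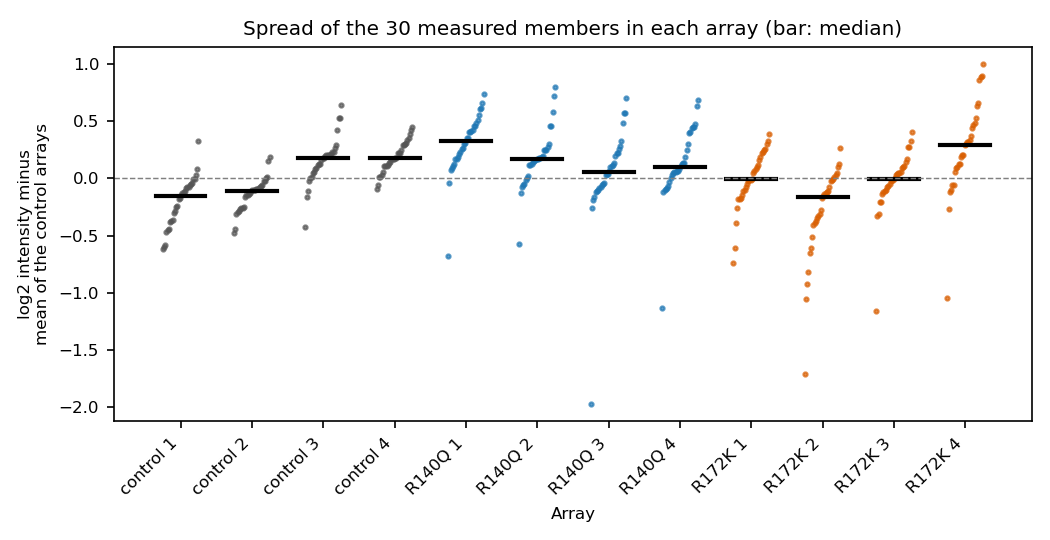
Points show the 30 members in each of the 12 arrays as log2 intensity minus the mean of the control arrays, and black bars show the median member. The medians of the R140Q arrays lie between 0.05 and 0.33, within or just above the span of the control arrays (-0.16 to 0.18), and those of the R172K arrays between -0.17 and 0.29.

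The first comparison asked which of these genes differed between R140Q and control hearts. Of the 30 members, 1 was higher, none was lower and 29 did not pass (limma, adjusted p under 0.05 over 19937 genes). Over all genes 2.2% were called in this comparison, 1.08% higher and 1.12% lower. The one call was Irf1, the interferon regulatory factor that interferon gamma induces through the GAS motif. Its log2 intensity was 7.34, 7.30, 7.51 and 7.42 in control and 7.66, 7.97, 7.72 and 7.83 in R140Q hearts, so that the groups did not overlap. Irf1 rose by 0.40 ± 0.09 (SE) in log2, or 1.32-fold (limma adjusted p = 0.0462). A second probe set of Irf1 did not share this difference, with 6.40 ± 0.07 (SD, n = 4) in control and 6.36 ± 0.11 in R140Q hearts, and the mean of both probe sets gave an adjusted p of 0.161. The call held without R172K 3 or without R172K 4 but ended without any 1 of the other 10 arrays (adjusted p from 0.0555 to 0.131), and over 26 alternatives the adjusted p ran from 0.00952 to 0.214.

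Small differences above 0 were common among the members in R140Q hearts. The difference was above 0 in 29 of 30 members, against 50.9% of all genes, and the median was 0.13 against 0.00302 over all genes. Many members rose and fell together by heart, so this count does not hold 30 separate observations. The median member lay at 0.18 and 0.17 in control 3 and 4, and at 0.33, 0.17, 0.05 and 0.09 in R140Q 1 to 4. Without control 1 the median difference was 0.0629. The unadjusted p was under 0.05 for 7 of 30 members and for 17% of all genes. For 3 members all R140Q hearts lay above all control hearts (7.79% of all genes), and for 1 they lay below (7.04%). The unadjusted 95% interval lay within 2-fold in either direction for 27 of 30 members, the exceptions being Oasl2, Rsad2 and Iigp1. Over all genes this held for 19234 of 19937. The median SE was 0.143 over the members and 0.0897 over all genes. Endothelial markers moved with the R140Q group: 3 of 5 were called higher (Cdh5, Kdr and Esam), and the 5 summed to 6683 to 7174 units in R140Q against 5175 to 5480 in control hearts. Macrophage markers summed to 3119 to 3800 and to 2531 to 3798 units, with none of 11 called. Cardiomyocyte markers summed to 67433 to 71542 units in R140Q against 74275 to 77798 in control hearts; 5 of 7 had all R140Q values below all control values, and none was called. The 4 atrial markers all had differences below 0, with a median of -1.61, 3 with an unadjusted p under 0.05 and none called. The part of these cells in the member differences was not tested.

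Among the antiviral effectors, Trim30a, a tripartite motif protein that restrains Toll-like receptor signalling, lay at 7.24, 7.45, 7.81 and 7.94 in control and at 8.16, 8.33, 8.18 and 8.06 in R140Q hearts. All R140Q values exceeded all control values, but the difference of 0.57 ± 0.18 did not pass (limma adjusted p = 0.129). Ifitm3, a membrane protein that blocks virus entry through endosomes, lay at 10.34 to 10.79 in control and at 10.84 to 11.25 in R140Q hearts, with a difference of 0.48 ± 0.18 (adjusted p = 0.19). Trim30a and Ifitm3 passed without R172K 4, an array of neither group that bears on this comparison through the pooled variance (adjusted p = 0.0332 and 0.0414, with ranges over the alternatives of 0.0332 to 0.318 and 0.0387 to 0.481). Ifit2, whose product belongs to the tetratricopeptide family that binds viral RNA and slows translation, lay at 6.90, 6.72, 7.16 and 7.15 in control and at 7.72, 7.14, 7.20 and 7.61 in R140Q hearts. Its groups overlapped slightly and the difference of 0.44 ± 0.14 did not pass (adjusted p = 0.117, from 0.0418 with array weights to 0.279 over the alternatives). Rsad2 differed by 0.57 ± 0.30 (adjusted p = 0.363), with R140Q values of 7.51, 8.22, 8.12 and 8.10 inside or just above the wide span of control hearts.

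**Figure D3:**
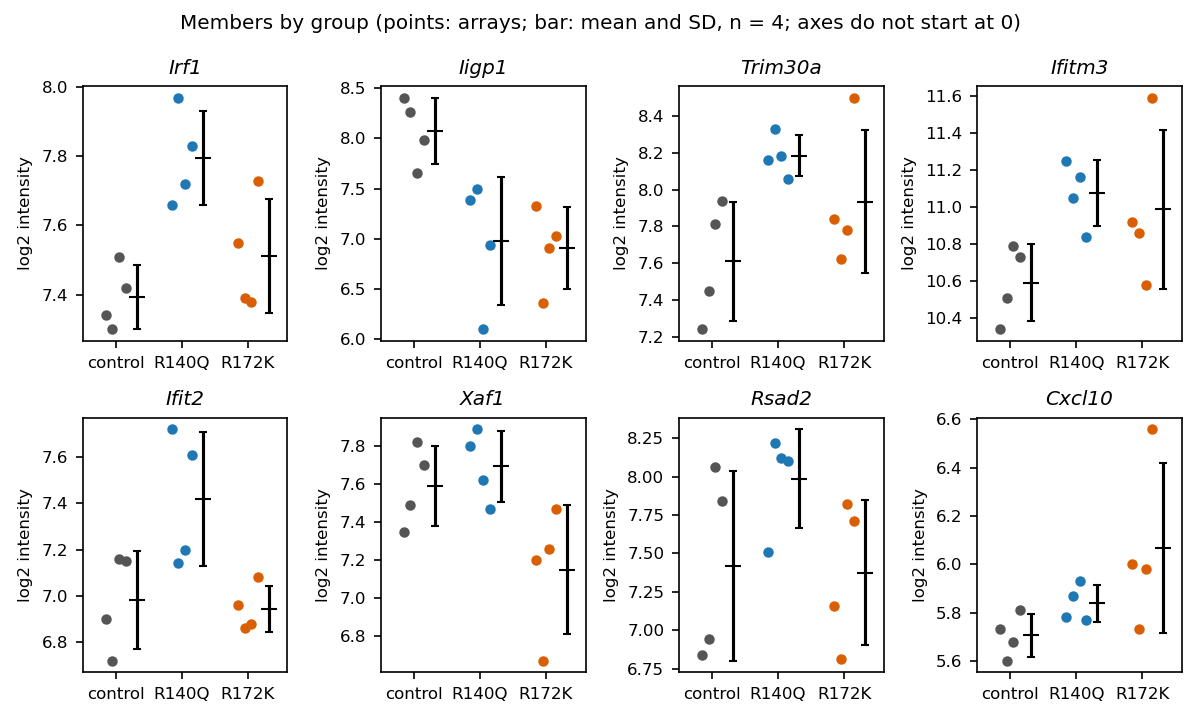
Log2 intensity of 8 members in each heart, with the group mean and SD (n = 4) beside the points. The R140Q values of Irf1, Trim30a and Ifitm3 lie above all control values, and Iigp1 lies below them in both mutant groups.

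In R172K hearts 1 of the 30 members was lower than in control, none was higher and 29 did not pass. Over all genes 13% were called in this comparison, 6.23% higher and 6.78% lower. The call was Iigp1, an immunity-related GTPase that attacks the vacuoles of intracellular parasites. Its log2 intensity was 8.40, 8.26, 7.65 and 7.98 in control, 7.33, 6.36, 6.91 and 7.03 in R172K, and 7.39, 7.50, 6.10 and 6.94 in R140Q hearts. All 8 mutant values lay below all control values, and over all genes 8.72% had every R172K value below every control value. Iigp1 fell by 1.16 ± 0.29 in R172K hearts, to 0.447 of the control level (limma adjusted p = 0.0209). In R140Q hearts the difference was -1.09 ± 0.29 and did not pass (adjusted p = 0.0712, from 0.0271 to 0.288 over the alternatives), and both comparisons rest on the same control hearts. The R172K call ended without control 1 (adjusted p = 0.0644), control 2 (0.0611) or R172K 2 (0.0614), with a range over the alternatives from 0.00796 to 0.0644. Iigp1 ran against most other members within the control group, being the only member highest in control 1. It was lowest in control 3, as were Oasl1 and Oas1a.

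The members showed no common direction in R172K hearts. Over all 30, Iigp1 included, differences were above 0 in 14 (49.1% of all genes) and below 0 in 16, with a median of -0.02 against -0.00335 over all genes, and Iigp1, Xaf1, Cxcl10 and Ifitm3 had an unadjusted p under 0.05 (4 of 30, against 26.6% of all genes). The unadjusted 95% interval lay within 2-fold in either direction for 29 members, all but Iigp1, and for 18834 of 19937 genes. Xaf1, which promotes cell death by binding to the inhibitor XIAP, lay at 7.35, 7.49, 7.82 and 7.70 in control and at 7.20, 6.67, 7.26 and 7.47 in R172K hearts. Its difference of -0.44 ± 0.16 did not pass (limma adjusted p = 0.0908, from 0.0266 to 0.21 over the alternatives) but did without R172K 4 (0.0471). Cxcl10, the chemokine that draws T cells through the receptor Cxcr3, lay at 5.60 to 5.81 in control and at 6.00, 5.73, 5.98 and 6.56 in R172K hearts, with a difference of 0.36 ± 0.14 (adjusted p = 0.101). It passed without R172K 2 (0.038, in a range of 0.038 to 0.221). Ifitm3 had a difference of 0.40 ± 0.18 (adjusted p = 0.186) with its highest value, 11.59, in R172K 4, and passed without R172K 3 (0.0487, in a range of 0.0479 to 0.416). R172K 4 held the highest R172K value of Xaf1, Cxcl10 and Ifitm3. Markers of several cell types moved with the R172K group. Of the cardiomyocyte markers 4 of 7 were called lower (57047 to 68677 units summed, against 74275 to 77798 in control), of the fibroblast markers 3 of 5 higher (9087 to 12882 against 7863 to 9698) and of the endothelial markers 2 of 5 higher (5888 to 6965 against 5175 to 5480). Their part in the member values was not tested.

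**Figure D4:**
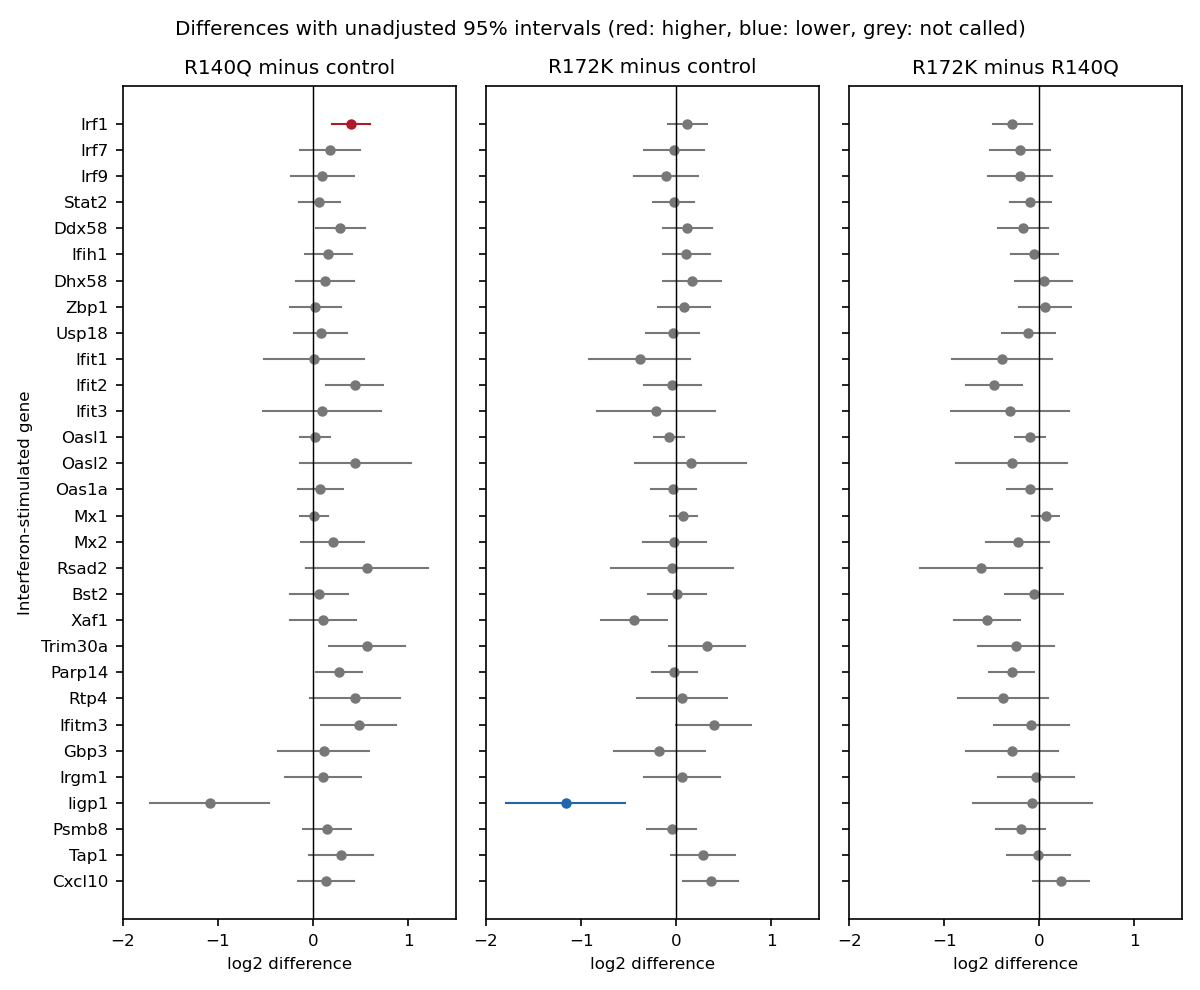
Points give the log2 difference of each member in the 3 comparisons, and lines give unadjusted 95% intervals from the limma fit. Irf1 (0.40, R140Q minus control) and Iigp1 (-1.16, R172K minus control) are the only members coloured as called, and the intervals of most other members cross 0.

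By role, the transcription factors beside Irf1 stayed close to control. Irf7, the master factor of the type I response, differed by 0.18 in R140Q and -0.03 in R172K hearts. Irf9 and Stat2, both subunits of the complex that binds the ISRE, differed by 0.10 and 0.07 in R140Q hearts, and by -0.11 and -0.03 in R172K hearts. Against control, adjusted p-values of these factors ran from 0.597 to 0.939. The RNA sensors Ddx58 (RIG-I), Ifih1 (MDA5) and Dhx58 (LGP2) and the Z-form nucleic acid sensor Zbp1 had differences from 0.02 to 0.29 in R140Q and from 0.08 to 0.16 in R172K hearts, none of which passed. Ddx58 came closest, at 7.76, 7.74, 8.08 and 7.93 in control and 8.29, 8.12, 8.07 and 8.18 in R140Q hearts (limma adjusted p = 0.236). Usp18, the protease that removes ISG15 from proteins and damps the type I receptor, lay between 6.77 and 7.44 in all 12 hearts.

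Other antiviral effectors had wide or flat profiles. Ifit1 lay at 6.23 to 7.20 in control, 6.41 to 7.13 in R140Q and 5.85 to 6.76 in R172K hearts, and Ifit3 at 7.05 to 8.09, 7.56 to 7.97 and 6.62 to 8.15. Ifit2 and Ifit3 are neighbours on their chromosome, yet in R140Q hearts Ifit2 differed from control by 0.44 and Ifit3 by 0.09. The neighbours Oasl1 and Oasl2 encode proteins like the 2′-5′ oligoadenylate synthetases. Oasl1 spanned 7.01 to 7.29 over all 12 hearts, whereas Oasl2 spanned 6.86 to 8.19, with its highest value in R172K 4. Oas1a, a synthetase of the activator of RNase L, spanned 6.13 to 6.68. The dynamin-like GTPase genes Mx1 and Mx2 were the dimmest members, at 4.18 to 4.42 and 4.06 to 4.97, and may lie at the background of the arrays. Inbred strains commonly carry a defective Mx1.

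Bst2 (tetherin), which holds budding virus at the cell surface, lay between 7.31 and 8.05 in all hearts. The ADP-ribosyltransferase gene Parp14 differed by 0.27 in R140Q hearts (limma adjusted p = 0.221) and by -0.02 in R172K hearts. The chaperone gene Rtp4 differed by 0.44 in R140Q hearts (adjusted p = 0.333), with 6.10, 6.47, 6.86 and 6.86 in control hearts and 7.18, 7.03, 6.83 and 7.02 in R140Q hearts. R172K hearts spread from 6.06 to 7.23 for this gene. Among the GTPases, the guanylate-binding gene Gbp3 spanned 6.47 to 7.28 in control hearts, 6.67 to 7.34 in R140Q and 6.18 to 7.06 in R172K hearts. Irgm1, which regulates the other immunity-related GTPases, spanned 6.98 to 7.72, 7.34 to 7.68 and 7.04 to 7.87 in the same order. Whether Iigp1 differed from control by more than Gbp3 and Irgm1 did was not tested.

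Psmb8, a catalytic subunit of the immunoproteasome, and its neighbour Tap1, a chain of the peptide transporter of antigen presentation, did not pass in any comparison. Psmb8 differed by 0.15 in R140Q and -0.05 in R172K hearts. Tap1 differed by 0.29 and 0.28, with 6.53, 6.55, 7.04 and 7.22 in control hearts, 7.24, 7.08, 6.97 and 7.23 in R140Q hearts and 7.22, 6.96, 6.93 and 7.36 in R172K hearts. For Tap1 all 8 mutant values exceeded those of control 1 and 2, while control 3 and 4 lay among the mutant values.

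The direct comparison of R172K with R140Q hearts called none of the 30 members, and 4 had an unadjusted p under 0.05. Over all genes 1.48% were called, 0.487% higher and 0.998% lower, and 16.3% had an unadjusted p under 0.05. With quality weights for the arrays, limma called Ifit2 and Xaf1 as lower in R172K, beside 8.9% of all genes called with those weights. The values that follow are from the main fit. Differences were below 0 in 26 of 30 members and above 0 in 4 (48.9% of all genes), with a median of -0.18 against -0.00317 over all genes. Since many members moved together by heart, these are not 30 separate observations. In 3 members, Ifit2, Mx2 and Xaf1, all R172K hearts lay below all R140Q hearts, as did 4.64% of all genes. No member had all R172K hearts above all R140Q hearts (3.07% of all genes). Ifit2 lay at 6.86 to 7.08 in R172K and 7.14 to 7.72 in R140Q hearts, a difference of -0.48 ± 0.14 (limma adjusted p = 0.0994). Xaf1 differed by -0.55 ± 0.16 (adjusted p = 0.104), and Irf1 by -0.28 ± 0.09 (adjusted p = 0.145). Trim30a and Ifitm3 differed by -0.25 and -0.09 (adjusted p = 0.575 and 0.885). The unadjusted 95% interval lay within 2-fold for 29 members, the exception being Rsad2, at -0.61 with an interval from -1.25 to 0.03. Over all genes the interval lay within 2-fold for 19374 of 19937. Cell markers also moved between the mutants. The 4 atrial markers had a median difference of 2.53, with 3 not overlapping and 1, Myl4, called higher. Of the 5 fibroblast markers Pdgfra was called higher, and all 11 macrophage markers had differences above 0, with 6 at an unadjusted p under 0.05 and none called. Their part in the member differences was not tested.

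Upstream of the members, the probe sets of the interferon genes themselves were mostly dim. Of 133 further interferon pathway genes listed, 111 were measured, among them 15 of 20 ligands, and no ligand was called in any comparison. Ifnb1 lay between 5.02 and 5.33 and Ifng between 5.02 and 5.49 over all 12 hearts. Dim ligands such as these may lie at background, where a change in expression might not be seen. Type I receptor chains did not pass either. Ifnar1 differed by -0.01 in R140Q and 0.25 in R172K hearts, and Ifnar2 by -0.05 and 0.17. The receptor gene Ifnlr1 lay at 5.96 to 6.42 in control, 6.16 to 6.24 in R140Q and 6.18 to 6.54 in R172K hearts. It was not called in any comparison. Of the kinases Jak1, Jak2 and Tyk2, none passed, with differences from -0.08 to 0.05 in R140Q and from -0.19 to -0.07 in R172K hearts.

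The receptor for interferon gamma changed in R172K hearts. Its ligand-binding chain Ifngr1 lay at 9.56, 9.62, 9.70 and 9.60 in control, 9.94, 9.99, 10.01 and 10.07 in R140Q, and 10.27, 10.24, 10.02 and 10.36 in R172K hearts, so that both mutant groups lay above control. Ifngr1 rose by 0.60 ± 0.07 in R172K hearts (limma adjusted p = 0.00114) and by 0.38 ± 0.07 in R140Q hearts (adjusted p = 0.0228). Its signalling partner Ifngr2 lay at 12.14, 12.25, 12.29 and 12.44 in control, 12.15, 12.17, 12.12 and 12.20 in R140Q and 11.50, 11.48, 11.81 and 11.60 in R172K hearts. Ifngr2 fell by 0.68 ± 0.08 in R172K hearts (adjusted p = 0.00111), and it was lower in R172K than in R140Q hearts by a tested difference of -0.56 ± 0.08 (adjusted p = 0.0207). The 2 chains thus moved in opposite directions in R172K hearts, and both R172K calls against control held whichever array was left out. The R140Q call of Ifngr1 ended without control 1 or 2 or without R140Q 1, 3 or 4 (adjusted p up to 0.0785). The call of Ifngr2 between the mutants ended without R140Q 1 or 4 or R172K 1 or 2 (up to 0.08) and in a fit of the 8 mutant arrays alone (0.0839).

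Of the 111 pathway genes, 3 were higher and none was lower in R140Q hearts, beside the 2.2% called over all genes. Besides Ifngr1 these were the immunoproteasome subunit gene Psmb10 (8.77 ± 0.07 in control, 9.58 ± 0.22 in R140Q, limma adjusted p = 0.00415) and the Schlafen gene Slfn5 (9.73 ± 0.17 and 10.18 ± 0.09, adjusted p = 0.0264). Psmb10 passed whichever array was left out but not with the atrial gene Myl7 as a covariate, an alternative chosen after seeing the data (0.106), while the Slfn5 call ended without control 1 or 2 or without any 1 R140Q array (adjusted p up to 0.0905). The proteasome activator gene Psme1 (-0.54) and Ifitm2 (0.39) did not pass in R140Q hearts (limma adjusted p = 0.0599 and 0.109). Every R140Q value of Psme1 lay below all control values (7.04% of all genes). Every R140Q value of Ifitm2, and of Ptpn2, lay above them (7.79% of all genes). In R172K hearts 6 pathway genes were higher and 10 lower, beside the 13% called over all genes. The higher genes were Ifngr1, Psmb10 (0.58), the signal transducer Stat3 (0.43), the phosphatase gene Ptpn2, which removes phosphate from Jak and Stat proteins (0.68), the secreted glycoprotein gene Lgals3bp (0.78) and Ifitm2, a relative of Ifitm3 (0.58). The lower genes were Ifngr2, the shared receptor chain Il10rb (-0.33), the proteasome activator subunits Psme1 (-0.85) and Psme2 (-0.33), the ubiquitin ligase genes Dtx3l (-0.52) and Trim21 (-0.30), Ifi35 (-0.48), Parp10 (-0.41), the DNA exonuclease Trex1 (-0.29) and the RNase H2 subunit Rnaseh2a (-0.34).

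Among the antigen processing genes, Psmb10 was called higher, and Psme1 and Psme2 lower, in R172K hearts. Psmb10 lay at 8.77 ± 0.07 in control and 9.34 ± 0.16 in R172K hearts, while Psme1 lay at 10.11 ± 0.15 and 9.27 ± 0.29. The other immunoproteasome subunits measured did not pass: Psmb8 is given above, and Psmb9 had differences of 0.08 in R140Q and -0.10 in R172K hearts. Of the 16 R172K calls, 9 held whichever array was left out (Ifngr1, Ifngr2, Stat3, Ptpn2, Ifi35, Ifitm2, Dtx3l, Psmb10 and Psme1), although with the mean of its probe sets Ptpn2 had a difference of 0.13 (adjusted p = 0.557). Those of Il10rb, Trex1, Rnaseh2a, Trim21, Lgals3bp, Parp10 and Psme2 each ended without control 2 and without R172K 2. Some of these also ended without control 1, 3 or 4 or R172K 1 or 4 (adjusted p up to 0.109 over arrays left out). In a fit of the 8 arrays compared, the calls of Il10rb (0.0519), Lgals3bp (0.0727) and Psme2 (0.0577) ended as well. With the replicate number as a block, those of Rnaseh2a and Lgals3bp ended. Between the mutants 2 pathway genes were called beside 1.48% of all genes, Ifngr2 and Dtx3l, which was 8.06 ± 0.10 in R140Q and 7.53 ± 0.17 in R172K hearts (adjusted p = 0.035). The Dtx3l call ended without control 1, R140Q 1, 3 or 4, or R172K 1 or 2 (up to 0.118) and in the fit of the 8 mutant arrays (0.0842). Macrophage markers moved with the R172K group as well: 3 of 11 were called higher and none lower, and the summed level was 2779 to 7545 units in R172K against 2531 to 3798 in control hearts. Their part in the pathway calls was not tested.

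**Figure D5:**
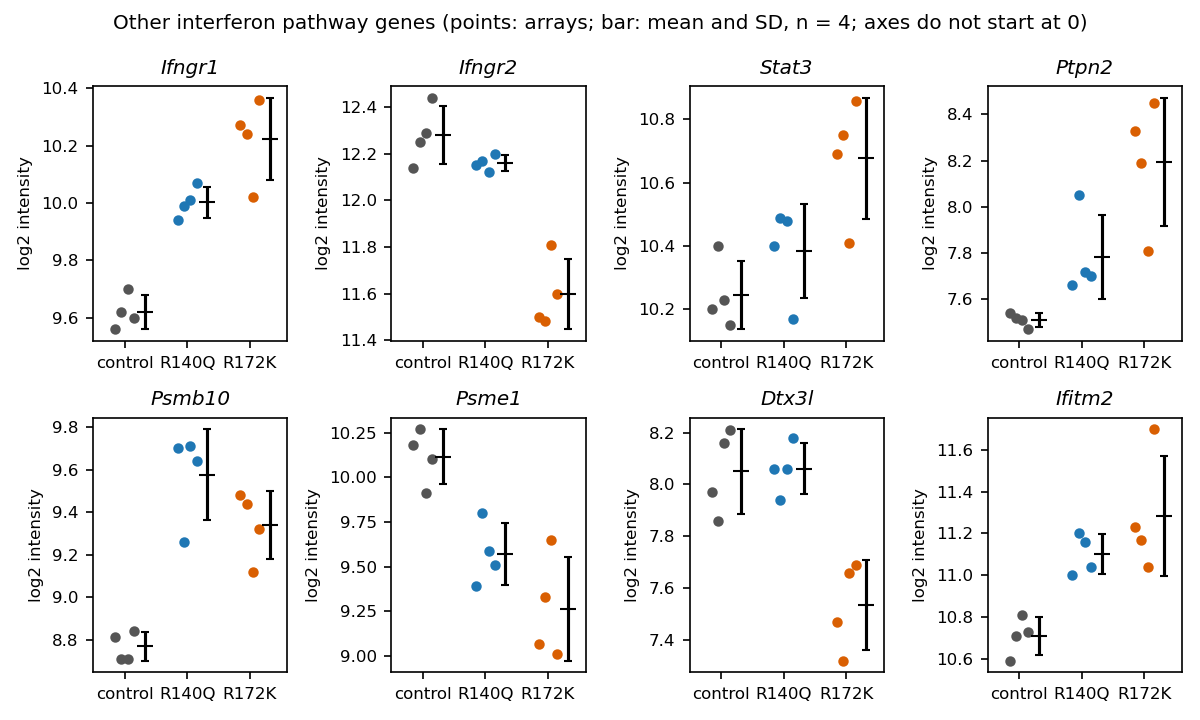
Log2 intensity of 8 interferon pathway genes outside the member list in each heart, with the group mean and SD (n = 4) beside the points. In R172K hearts Ifngr1, Stat3, Ptpn2, Psmb10 and Ifitm2 lie above all control values, and Ifngr2, Psme1 and Dtx3l lie below them. In R140Q hearts Ifngr1, Ptpn2, Psmb10 and Ifitm2 also lie above all control values and Psme1 below them, while Stat3, Ifngr2 and Dtx3l overlap control.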

How the data were processed

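Heart RNA was measured on 12 Affymetrix arrays. The deposited table holds an intensity per probe set, which the authors computed by RMA according to the labels' processing entry (per the submitters' processing notes). The intensity is linear, as judged from its values, so log2 was taken with no pseudocount, since every value was above 0. Of 34760 probe sets, 21640 carried 1 symbol and gave 19937 genes. For a gene with several probe sets, the one with the highest mean over all arrays was used. No detection calls were used, so a dim gene may lie at background. The number of arrays limits the precision.

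Group means of all 12 arrays were fitted with limma 3.58.1 under R 4.3.3 (functions lmFit and eBayes, two-sided tests, 9 residual and 3.54 prior degrees of freedom), with Benjamini-Hochberg adjustment over 19937 genes. Called means an adjusted p under 0.05. The fit was checked on simulated data. The intervals are unadjusted 95% intervals of that fit. Members and lists were chosen with earlier results of these data known. The genes named are all measured members, interferon ligands (given mostly as a count), receptors, Jak kinases, defining cell type markers, Idh2 and every pathway gene called in any comparison. Psmb9 and B2m were chosen after their values were seen. Same-numbered hearts of different groups did not deviate together (correlation over genes from -0.336 to 0.152 in 12 pairs), so the numbers were not taken as pairs. Alternatives covered the arrays, block, probe set, dim genes, normalization, variance model, weights, pseudocount, threshold and each array left out.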

Additional observations from a re-analysis of the deposited data

Results flagged for a closer look

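Among 90 combinations of a member and a group of 4 hearts, 4 held a heart whose gap to the nearest other heart, divided by the range of the group, was above Dixon's 95% critical value (4.44%). By its definition that limit marks about 1 in 20 groups by chance. Stat2 lay at 7.80 in R172K 4, with the next heart at 7.52. Oasl1 lay at 7.16 in R172K 3, with the next at 7.02. Mx2 lay at 4.06 in control 1, with the next at 4.81. Rsad2 lay at 7.51 in R140Q 1, with the next at 8.11.

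The effects of the 2 mutants differed by a test of the difference itself for Ifngr2 (-0.56 in log2, R172K minus R140Q) and for Dtx3l (-0.53). In both genes R140Q hearts lay within or near the control span, and R172K hearts below it.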

How the results depend on the processing

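The counts are small and move with the processing, and the cause was not tested. The main values were 1 member called for R140Q against control, 1 for R172K against control and none between the mutants. Other pathway genes called were 3, 16 and 2 in the same order, beside 2.2%, 13% and 1.48% of all genes. The share of all genes called moved with the setting as well. With only the 8 arrays compared, R140Q against control gave 3 members and 9 pathway genes (6.73% of all genes), and the mutants 0 pathway genes (0.0451%). With the replicate number as a block, R140Q gave 0 members and 1 pathway gene (0.983% of all genes) and the mutants 1 pathway gene (0.0552%). The R172K counts against control stayed within 1.5 times. R140Q gave 0 members with the mean of all probe sets (2.18% of all genes) or with a trended, robust variance (1.94%). Array weights gave 5, 2 and 2 members and 10, 28 and 19 pathway genes, beside 8.28%, 22.5% and 8.9% of all genes. An adjusted p under 0.01 gave 0 members in every comparison and 1, 7 and 0 pathway genes, beside 0.366%, 3.88% and 0.00502% of all genes. Asking for at least 1.5-fold gave 0 members for R140Q and 1, 5 and 0 pathway genes, beside 0.968%, 4.47% and 0.562% of all genes. A fit without control 3 and R172K 3 was chosen after seeing the data. It gave 2 members for R172K against control (19% of all genes) and 8 pathway genes between the mutants (7.11%). Also chosen then, Myl7 as a covariate gave 0 members and 0 pathway genes for R140Q (0.0652% of all genes). The median member difference was 0.386 in place of 0.127. Between the mutants this covariate gave 0 pathway genes (0.0251% of all genes). Leaving out each array in turn gave 0 to 3, 0 to 2 and 0 to 0 members, and 1 to 8, 9 to 28 and 0 to 8 pathway genes. The share of all genes called ran from 0.502% to 5.09%, from 6.66% to 20.9% and from 0.00502% to 7.91%. The median member difference then ran from 0.0629 to 0.204 for R140Q, from -0.074 to 0.0951 for R172K and from -0.271 to -0.0927 between the mutants. Over 3660 values of single genes under alternatives, 121 lost and 44 gained a call, and no called difference changed sign, while 96 uncalled ones did. Probe sets without a detection call limit what can be said of Mx1, Mx2 and the dim interferon genes.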

Other observations

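The MHC class I light chain B2m, an interferon-inducible gene outside the member list, followed the order of the control hearts seen for most members. Its log2 intensity was 11.14, 11.33, 12.22 and 12.26 in control 1 to 4, and lay between 12.17 and 12.36 in R140Q and between 11.87 and 12.32 in R172K hearts. Its differences from control, 0.53 in R140Q and 0.25 in R172K hearts, did not pass (limma adjusted p = 0.248 and 0.547).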
